A study of Arabidopsis thaliana with 18 samples.

Results

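Roots of the Arabidopsis thaliana triple mutant vnd123 were compared after 8 h on plates with 1 µM abscisic acid (ABA), a plant hormone that accumulates when water is short, or on mock plates, across every gene of the deposited count table. The comparison rests on 6 libraries, 3 of vnd123 in ABA and 3 of vnd123 in mock, chosen by the genotype and treatment labels, out of 18 in the series. The other 12 libraries are 3 in ABA and 3 in mock of the wild type Col-0 and of the mutant vnd7. They received the same treatment at the same age. They enter here in the fit, the levels of the mutated loci, the comparison of responses and the search for genes without reads. Seedlings had grown for 5 days in long days, and each library pooled 50 to 100 of them. The labels record 1 cm of root for every library, so levels need not be those of whole roots. The genotype is named for lesions in VND1, VND2 and VND3. The labels give no alleles and do not say whether the replicates came from separate cultures, and the p-values here reflect only how far these pools differed, which may be technical. Of 34218 features in the table, 20869 had enough reads to be tested.

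ABA is sensed by the PYR/PYL receptors. Hormone-bound receptors block the clade A PP2C phosphatases, which otherwise keep SnRK2 kinases inactive. The freed kinases phosphorylate ABF-type bZIP transcription factors, which bind promoter elements with the core ACGTG (the ABA-responsive element, ABRE) and switch on genes that protect cells from water loss. The VND proteins belong to the NAC family of transcription factors and start the making of xylem vessels, the dead, wall-thickened cells that conduct water. In roots, ABA is known to affect growth, suberin deposition in the endodermis, ion transport and xylem formation.

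Total counts ran from 50793600 to 52817387 in the vnd123 mock libraries and from 39695163 to 55131602 in the ABA libraries. The first principal component of the 6 libraries held 84.7% of the variance and separated ABA from mock, and the second held 6.13%. Levels below are CPM, counts scaled to TMM-adjusted library sizes, and changes are log2 fold changes of ABA minus mock ± SE from edgeR's quasi-likelihood fit. A gene "rose" or "fell" where its Benjamini-Hochberg adjusted p over all tested genes was under 0.05. Genes that mark root tissue were present, with PYK10 at 9034, 9605 and 9959 CPM and CASP1 at a mean of 275 ± 13.7 CPM (SD, n = 3) in mock. Levels are shares of a library's RNA, so fewer cells of a type and less RNA per cell cannot be told apart.

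The 3 mutated loci were not empty but lay below their Col-0 levels. Means of VND1, VND2 and VND3 in mock were 0.0492, 0.456 and 1.51 CPM in vnd123 and 1.35, 1.82 and 3.76 CPM in Col-0. In ABA the means were 0.144, 0.687 and 1.40 CPM in vnd123 and 0.954, 3.42 and 5.74 CPM in Col-0. VND1 had 8 reads in the 3 mock libraries together and 17 in the ABA libraries, of which mock replicate 3 held 7 and ABA replicate 2 held 15. VND2 lay at 0.465, 0.460 and 0.443 CPM in mock and at 0.592, 0.824 and 0.646 CPM in ABA. The gene overlaps AT4G36170 in the reference, and reads of overlapping genes cannot be told apart because the library kit does not mark strand. VND3 lay at 1.24, 1.66 and 1.62 CPM in mock and 1.44, 1.39 and 1.37 CPM in ABA. None of the 3 passed the test, with log2 changes of 1.37 ± 0.97, 0.58 ± 0.26 and -0.10 ± 0.15 and adjusted p of 0.307, 0.105 and 0.653.

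ABA raised 3872 genes and lowered 2885 in vnd123, 18.6% and 13.8% of the genes tested, 32.4% in all. Most changes were small. Of the genes that rose, 2783 changed by less than 2-fold and 1089 (5.22% of those tested) by at least 2-fold, and of those that fell, 2125 and 760 (3.64%). At least 4-fold changes numbered 408 upward and 247 downward, and at least 16-fold changes 126 and 58. The median over all tested genes was 0.01 on the log2 scale. The libraries of the groups did not overlap for 44.6% of the tested genes, among them 3738 of the genes that rose and 2795 of those that fell. With unscaled library sizes 3085 genes rose and 3838 fell, so the share of called genes that rose, 57.3%, became 44.6%. That scaling moved the median to -0.06. No gene was called in the opposite direction under any of the 6 other settings of the fit.

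**Figure D1:**
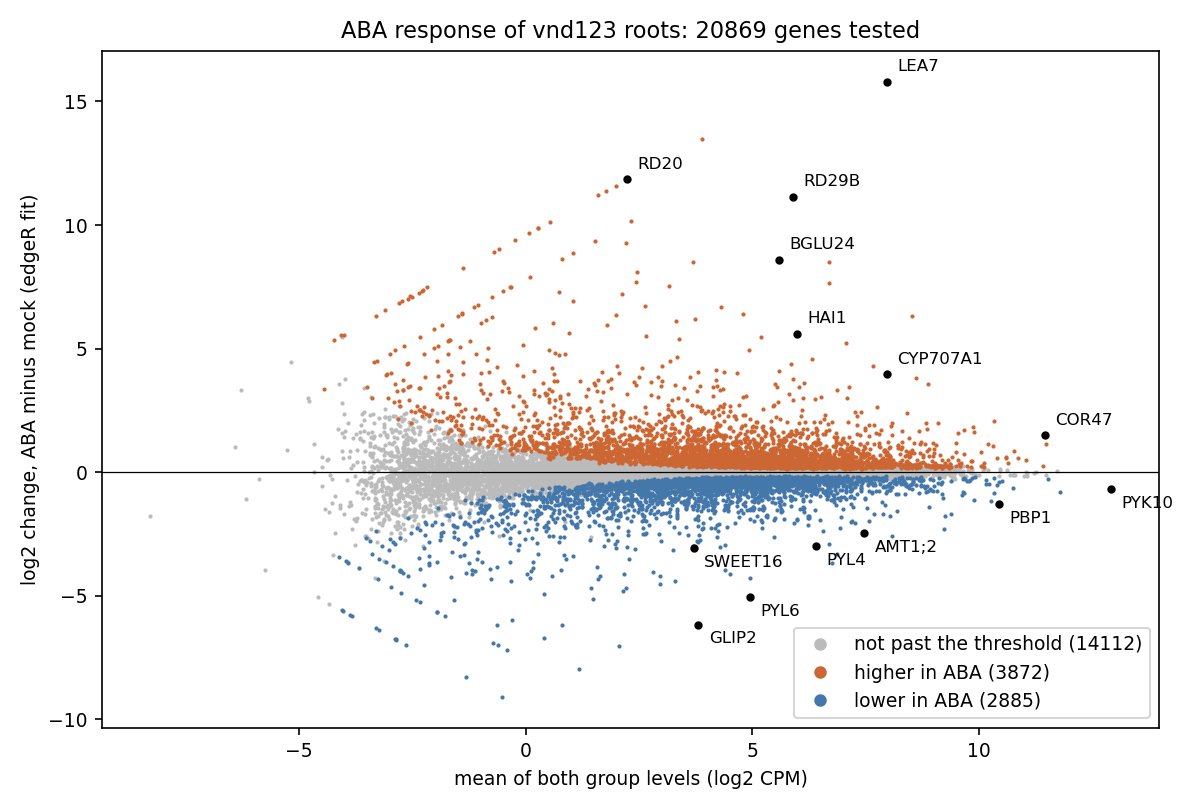
Log2 change (ABA minus mock, edgeR fit) against the log2 of the mean of both group levels in CPM for the tested genes of vnd123, orange where a gene rose (3872), blue where it fell (2885) and grey otherwise. Genes without reads in vnd123 are not drawn, and the diagonal rows of points are genes with few or 0 reads in one group. LEA7 has the highest fitted change, and the most abundant gene, PYK10, lies below the zero line.

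The largest fitted increase was that of LEA7 (AT1G52690), which encodes a late embryogenesis abundant (LEA) protein that protects drying tissue. It lay at 0.0194, 0 and 0 CPM in mock and at 456, 491 and 569 CPM in ABA. A single read in the mock libraries stood against 65702 in ABA, a ratio of 79928 (95% counting interval 14345 to 3157030). The gene overlaps AT1G52695. RD29B (AT5G52300), a classic ABA reporter gene, lay at 0.0194, 0.0184 and 0.111 CPM in mock and at 120, 107 and 131 CPM in ABA, a log2 change of 11.15 ± 0.47. Every ABA library lay far above every mock library. AT3G17520, another LEA family gene, had 0 reads in mock and 28.0, 24.0 and 37.0 CPM in ABA, at least 1572-fold higher. The caleosin gene RD20 (AT2G33380) was at least 498-fold higher, the transcription factor gene MYB102 (AT4G21440) at least 423-fold, AT5G50360 at least 356-fold and the galactinol synthase gene GolS2 (AT1G56600) at least 333-fold, each against 0 reads in mock. BGLU24 (AT5G28510), a beta-glucosidase gene, rose from 0.465, 0.147 and 0.129 CPM to 95.2, 83.3 and 110 CPM, a log2 change of 8.61 ± 0.27.

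The 250 bases before the annotated start are shown for RD29B and RAB18, which rose strongly, for HAI1, a phosphatase gene that also rose strongly, and for PYL6, the receptor gene that fell most. They were read from the RefSeq assembly TAIR10.1 by the locus codes, and the coordinates are those of that reference (the authors' build is not named). RD29B is chr5:21236771-21237020 on the plus strand, RAB18 chr5:26519448-26519697, HAI1 chr5:23896940-23897189 and PYL6 chr2:16846195-16846444, all 3 on the minus strand. Each is written 5′ to 3′ along its gene, and capitals mark ACGTG on either strand (CACGT where it lies on the other strand).
RD29B: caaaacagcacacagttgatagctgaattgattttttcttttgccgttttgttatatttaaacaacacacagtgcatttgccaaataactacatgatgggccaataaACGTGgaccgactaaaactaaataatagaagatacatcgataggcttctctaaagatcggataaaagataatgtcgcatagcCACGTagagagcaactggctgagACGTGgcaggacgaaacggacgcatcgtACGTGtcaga
RAB18: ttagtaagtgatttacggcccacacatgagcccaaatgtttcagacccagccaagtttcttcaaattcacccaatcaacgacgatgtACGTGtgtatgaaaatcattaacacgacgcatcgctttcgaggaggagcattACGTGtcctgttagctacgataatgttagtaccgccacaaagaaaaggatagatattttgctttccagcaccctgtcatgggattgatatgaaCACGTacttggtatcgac
HAI1: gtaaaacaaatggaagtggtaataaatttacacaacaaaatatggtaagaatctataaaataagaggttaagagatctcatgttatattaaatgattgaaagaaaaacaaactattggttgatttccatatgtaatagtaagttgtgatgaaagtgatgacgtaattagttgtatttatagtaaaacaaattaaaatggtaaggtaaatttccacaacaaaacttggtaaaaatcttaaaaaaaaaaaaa
PYL6: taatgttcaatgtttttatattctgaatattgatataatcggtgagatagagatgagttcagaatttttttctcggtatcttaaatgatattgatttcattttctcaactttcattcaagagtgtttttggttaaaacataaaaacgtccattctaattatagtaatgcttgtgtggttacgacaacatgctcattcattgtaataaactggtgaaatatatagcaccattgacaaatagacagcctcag
RD29B held 4 matches and RAB18 held 3, while HAI1 and PYL6 held 0 in these bases. A match is a description of letters, and no match says only that the letters are not in this window.

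Promoter windows of all tested genes gave the background for that motif. In windows from 250 bases before to 50 after the annotated start, ACGTG stood on either strand in 5779 of 20822 genes, 27.8%. Among genes that rose at least 4-fold the share was 44.9% (183 of 408), among those that rose 2-fold to 4-fold 40.4%, and among those that rose less 35.3%. Genes that did not pass held it in 25.2% of windows. Genes that fell at least 4-fold held it in 27.5%, close to the share of all genes. The palindrome CACGTG, the G-box, which contains ACGTG, stood in 8.66% of all windows, 23.8% of those of genes that rose at least 4-fold and 6.07% of those of genes that fell at least 4-fold. The dehydration-responsive element, searched as ACCGAC or GCCGAC on both strands, stood in 9.59%, 13.5% and 5.67%. Of the 12 largest increases 7 held ACGTG and of the 12 largest decreases 5.

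Receptor genes fell while phosphatase genes rose. Of 13 receptor genes 11 were tested, and 7 fell and 2 rose. PYL6 (AT2G40330) lay at 60.9, 66.9 and 51.3 CPM in mock and at 1.41, 2.27 and 1.76 CPM in ABA, a log2 change of -5.07 ± 0.17. PYL4 went from 153, 164 and 132 CPM to 17.2, 20.6 and 19.4 CPM (-2.98 ± 0.16), and PYL5 from a mean of 76.2 ± 12.4 to 12.5 ± 0.563 CPM (SD, n = 3). PYR1 stayed abundant, at 156, 165 and 147 CPM in mock and 69.0, 70.7 and 65.5 CPM in ABA. The receptor genes that rose were scarce, PYL3 from a mean of 0.373 to 0.963 CPM and PYL2 from 7.0 to 9.43 CPM. The PYL2 call ended without ABA replicate 3 (adjusted p = 0.0541). All 9 clade A PP2C genes, whose products the receptors inhibit, were tested and rose, with a median log2 change of 2.45 against 0.01 over all genes. HAI1 (AT5G59220) lay at 2.56, 2.56 and 2.49 CPM in mock and at 116, 79.9 and 174 CPM in ABA, a change of 5.6 ± 0.28. ABA replicate 2 was the lowest ABA library for each of the 9 but AHG1, and it still lay above every mock library. ABI1, the most abundant of the 9 in ABA, went from 93.5, 81.7 and 86.7 to 336, 284 and 360 CPM.

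**Figure D2:**
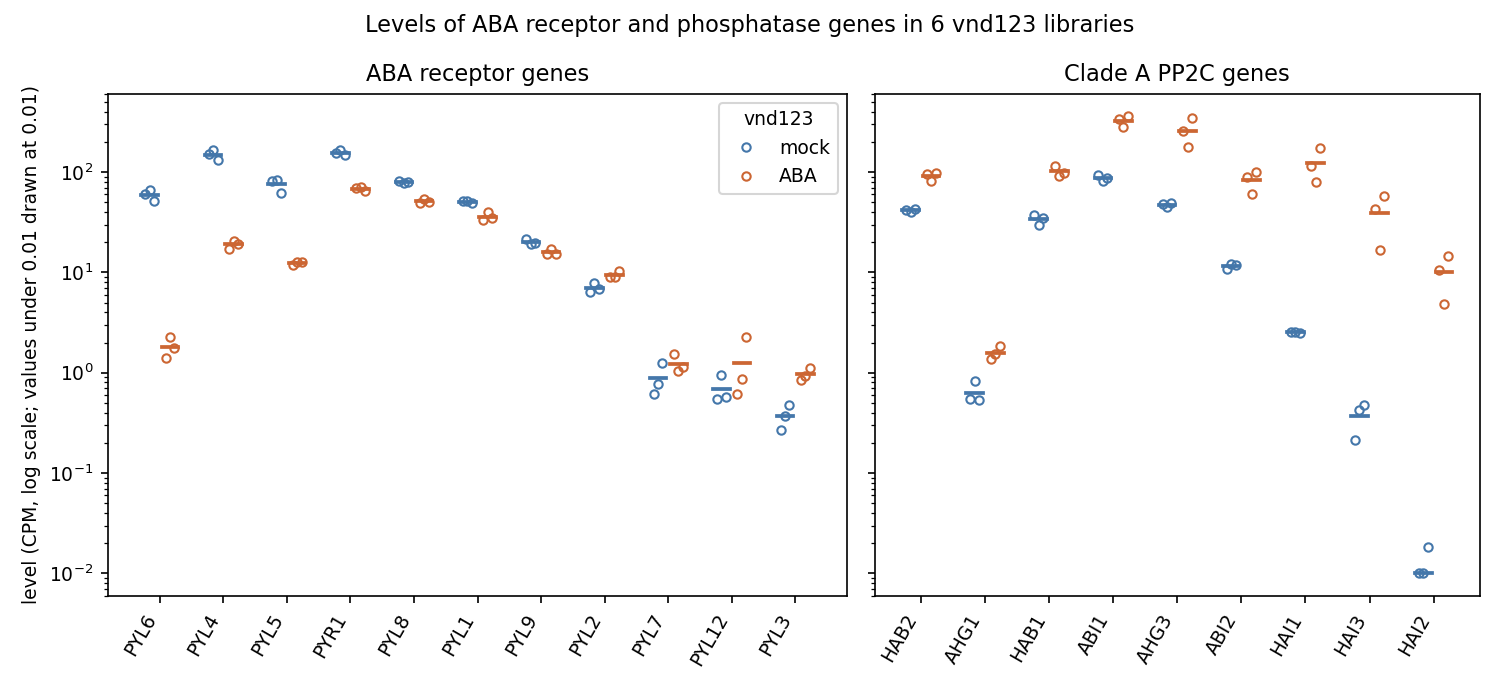
Level in CPM (log axis, values under 0.01 drawn at 0.01) of 11 ABA receptor genes and 9 clade A PP2C genes in the 3 mock (blue) and 3 ABA (orange) libraries of vnd123, with lines at the means. Mock and ABA libraries are apart for each phosphatase gene, with ABA above, and for 7 receptor genes ABA is below.

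Of 10 SnRK2 genes 5 rose and 0 fell, with SNRK2.9 from a mean of 39.7 to 118 CPM (1.58 ± 0.09) and OST1, the kinase of guard cell closure, from 14.1 to 27.3 CPM (0.95 ± 0.11). SNRK2.2 and SNRK2.3, which act with OST1 in ABA signalling, were at 0.07 ± 0.06 and 0.25 ± 0.13 and did not pass. Of 12 genes of ABF-type factors and their AFP repressors 8 rose and 1 fell, with AFP1 at 3.55 ± 0.16 and ABF2 at 1.48 ± 0.10. Of 12 HD-Zip I genes 8 rose and 1 fell, 2 without ABA replicate 3. HB-12, a dampener of ABA signalling, lay at 0.116, 0.239 and 0.480 CPM in mock and 23.3, 8.60 and 27.2 CPM in ABA (6.12 ± 0.49), and HB-7 went from a mean of 21.1 to 212 CPM. Genes of ABA turnover rose on both sides of the pool. CYP707A1, whose product breaks ABA down, lay at 22.9, 34.2 and 33.9 CPM in mock and 454, 444 and 518 CPM in ABA (3.96 ± 0.16). NCED3, which encodes the limiting enzyme of synthesis under drought, went from 4.05, 2.61 and 4.08 CPM to 34.5, 24.0 and 47.9 CPM (3.31 ± 0.25). In that list of 15 tested genes 7 rose (46.7%) and 2 fell (13.3%). The number lower was 1 without ABA replicate 3 or without mock replicate 1. Over all tested genes 18.6% rose and 13.8% fell.

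Genes of protective proteins rose, while those of solutes went both ways. All 17 tested LEA and dehydrin genes of 20 rose, with a median of 3.0. The other 3, which had at most 7 reads in a group, were not tested, and the filter admits a scarce gene through the group where it is high. RAB18, a dehydrin gene, lay at 0.717, 0.792 and 0.406 CPM in mock and 60.1, 47.5 and 57.0 CPM in ABA (6.42 ± 0.36). RAB28 passed at 1.92 ± 0.56, and its call ended without ABA replicate 3, mock replicate 1 or mock replicate 2 (adjusted p = 0.0575, 0.0606 and 0.0541). COR47 went from an already high 1512, 1361 and 1495 CPM to 3951, 4263 and 4167 CPM. The summed level of the LEA list lay between 3195 and 3480 CPM in the mock libraries and between 9243 and 9985 CPM in the ABA libraries. Of 17 RD, KIN and related dehydration genes 13 rose, with KIN1 at 6.32 ± 0.46 and RD29A at 3.81 ± 0.15 (KIN1 and KIN2 are near-identical neighbours whose reads could be split between them). ERD6, a sugar transporter gene, fell by 0.98 on the log2 scale. Of 19 proline, raffinose and trehalose genes 8 rose and 6 fell, 42.1% and 31.6% against 18.6% and 13.8% of all genes, with a median of 0.08. Their summed level was 1074 to 1189 CPM in mock and 1053 to 1170 CPM in ABA. P5CS1, the gene of the entry enzyme of proline synthesis, went from 52.9, 52.5 and 58.4 CPM to 274, 254 and 258 CPM. ERD5, whose product degrades proline, went from 424, 304 and 361 CPM to 139, 83.8 and 113 CPM (-1.70 ± 0.20). GolS4, a second galactinol synthase gene of raffinose synthesis, stood at a ratio of 640 (114 to 25322) with 1 read in mock, and overlaps AT1G60460.

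Genes of suberin synthesis rose together. Suberin is the waxy wall polymer that seals the endodermis. Of 23 genes of suberin synthesis and export 17 were tested and rose, with a median of 0.96. ABCG6, an exporter gene, went from 107, 100 and 116 CPM to 331, 359 and 368 CPM (1.71 ± 0.09). GPAT5, an acyltransferase gene, went from 37.6, 41.0 and 39.6 CPM to 115, 121 and 122 CPM, and CYP86A1, a fatty acid hydroxylase gene, from a mean of 279 to 612 CPM. FACT passed at 0.87 ± 0.32, but not with DESeq2 (adjusted p = 0.0779), with DESeq2 size factors (0.0508), with unscaled library sizes (0.0645), with the replicate block (0.053), or without ABA replicate 1, ABA replicate 2, mock replicate 1 or mock replicate 3 (adjusted p = 0.0515, 0.245, 0.206 and 0.0869). Of 9 MYB factor genes tied to suberin 8 rose. MYB41 lay at 2.3, 2.95 and 4.30 CPM in mock and 15.8, 9.20 and 27.0 CPM in ABA (2.44 ± 0.30), and MYB39 did not pass (-0.08 ± 0.20). Of 12 Casparian strip and endodermis identity genes 2 rose and 2 fell, 16.7% each way, near the 18.6% and 13.8% of all genes. Each count was 1 without ABA replicate 1, ABA replicate 3, mock replicate 2 or mock replicate 3, where CASP1 and MGP lost their calls, and the number higher was also 1 without ABA replicate 2. CASP5 was the member that rose most, from 27.3, 20.4 and 20.4 CPM to 102, 108 and 122 CPM, while SHR and SCR, the regulators of endodermis fate, were at -0.05 ± 0.08 and -0.09 ± 0.06.

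**Figure D3:**
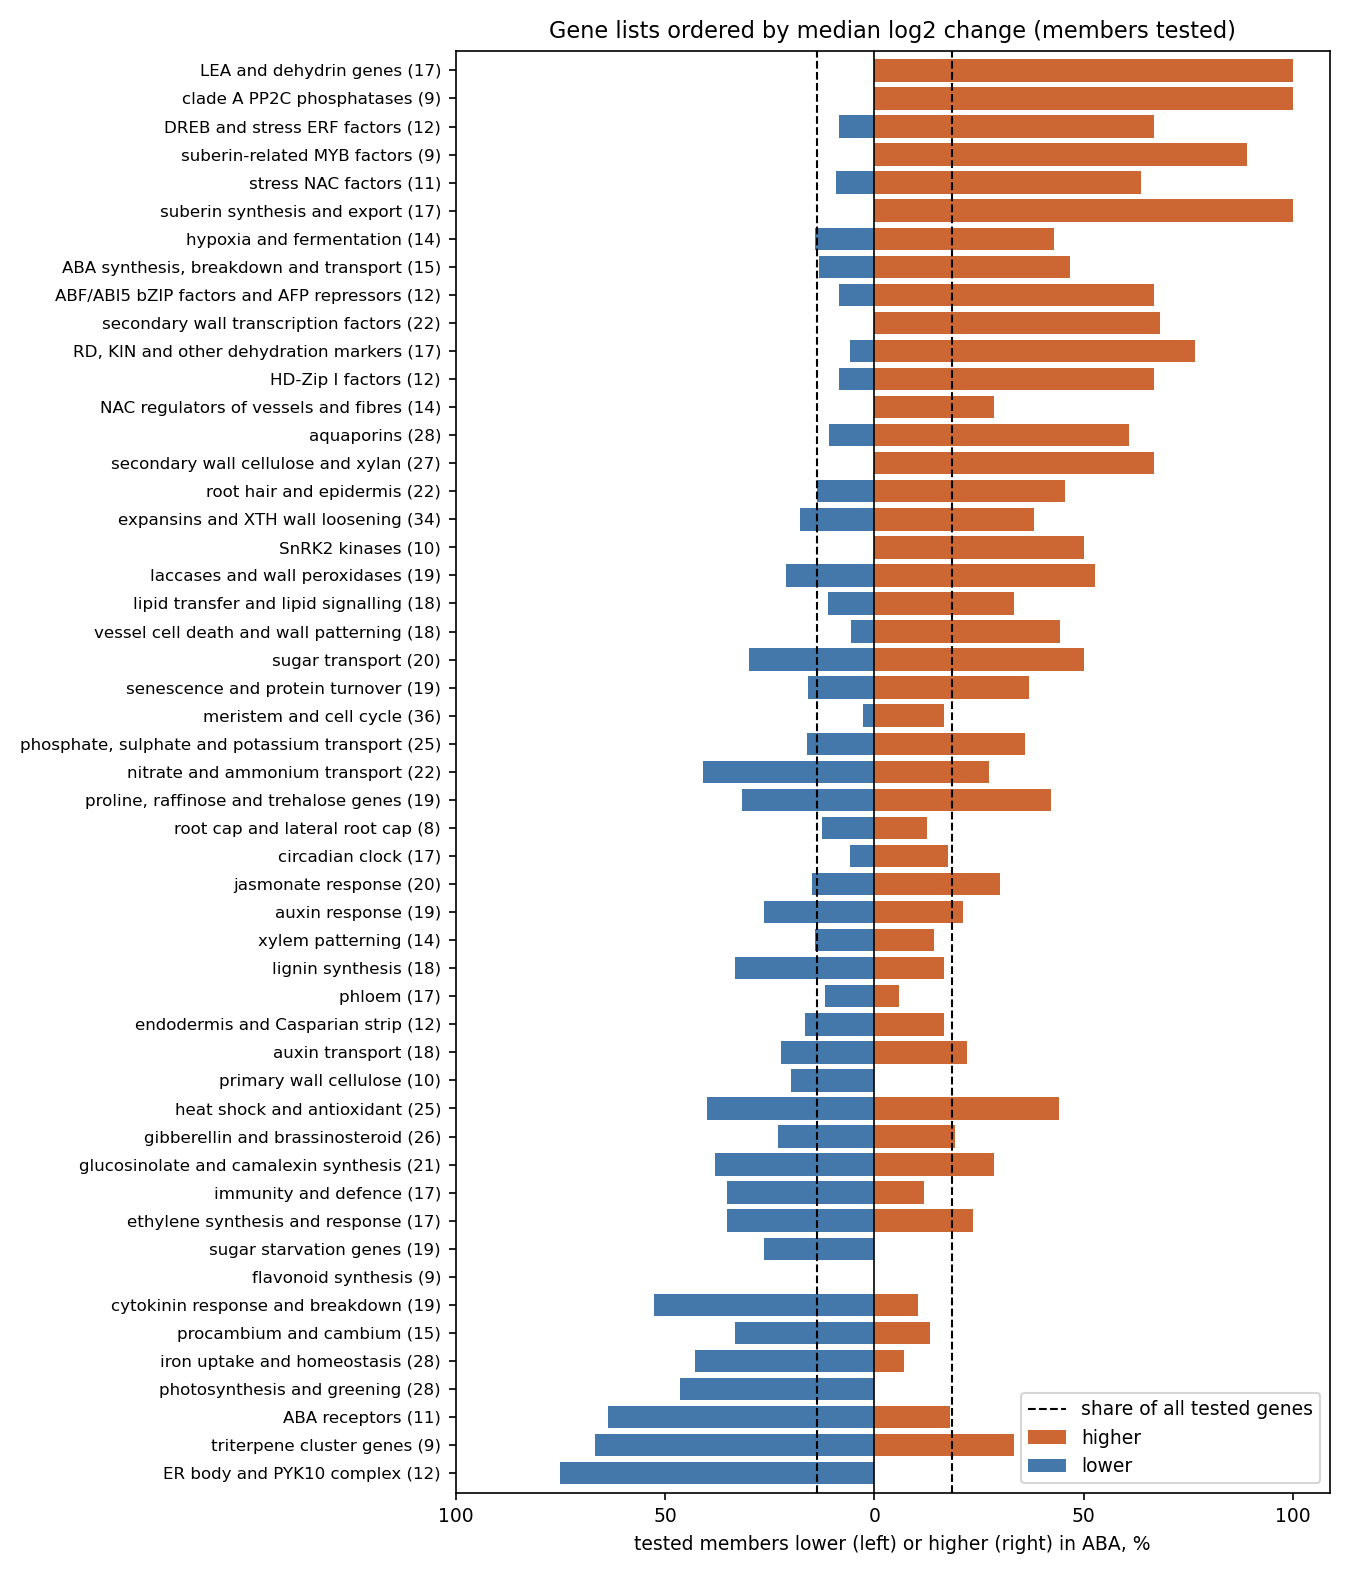
Share of the tested members of each of 51 gene lists that fell (blue, left) or rose (orange, right) in vnd123, with the number tested in brackets, ordered by median log2 change. Dashed lines mark the shares over all tested genes, 13.8% lower and 18.6% higher. LEA, phosphatase and suberin synthesis genes reach 100% on the right, and the ER body list reaches 75.0% on the left.

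Vessel wall genes rose moderately in the mutant. Of 22 secondary wall transcription factor genes 15 rose and 0 fell (1 without ABA replicate 1, ABA replicate 2 or mock replicate 1), and of 27 secondary wall cellulose and xylan genes 18 rose and 0 fell. MYB46, a master switch directly below the VND proteins, lay at 2.15, 3.06 and 3.4 CPM in mock and 7.18, 7.62 and 8.93 CPM in ABA (1.46 ± 0.15), and MYB83, its partner, at 0.813, 0.847 and 0.923 CPM and 1.65, 1.52 and 2.4 CPM (1.1 ± 0.23). IRX3, a cellulose synthase subunit gene of the secondary wall, went from 26.2, 30.3 and 28.4 CPM to 43.4, 45.8 and 43.3 CPM (0.64 ± 0.10). Both lists' medians, 0.76 and 0.40, were small beside that of the LEA genes. Of 14 tested genes in the list of vessel and fibre NAC regulators 4 rose and 0 fell. The shares were 28.6% and 0% against 18.6% and 13.8% of all genes. VND7, not among the genes the line is named for, was at 1.82, 1.60 and 2.29 CPM in mock and 2.59, 2.47 and 3.85 CPM in ABA. It did not pass (0.64 ± 0.24, adjusted p = 0.0532). It passed with DESeq2 (adjusted p = 0.0288), with the replicate block (0.0345) and without mock replicate 3 (0.0401). Of 10 primary wall cellulose genes, which serve growing cells, 0 rose and 2 fell, CESA2 at -0.50 ± 0.09 and COB at -0.18 ± 0.06. The share lower was 20%, against 13.8% of all genes. The COB call ended without ABA replicate 1, mock replicate 2 or mock replicate 3 (adjusted p = 0.0745, 0.0833 and 0.0781). BFN1, a nuclease gene of vessel cell death, went from 7.20, 6.90 and 6.53 CPM to 35.0, 31.9 and 49.2 CPM.

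Lignin genes went both ways. Of 18 genes of monolignol synthesis 3 rose and 6 fell, 16.7% and 33.3% against 18.6% and 13.8% of all genes. Without ABA replicate 1 the number lower was 3. CCR2 rose by 1.65 ± 0.11 and CAD5 by 0.96 ± 0.07, while FAH1, the gateway to syringyl lignin, fell by 1.44 on the log2 scale. Of 19 laccase and wall peroxidase genes 10 rose (52.6%) and 4 fell (21.1%). LAC17, a laccase gene of lignin formation, lay at 17.5, 22.3 and 18.8 CPM in mock and 33.1, 26.2 and 30.7 CPM in ABA (0.62 ± 0.10). The peroxidase gene PRX71 went the other way, from 197, 203 and 204 CPM to 19.4, 16.8 and 11.3 CPM (-3.66 ± 0.24).

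Of 28 iron genes 12 fell and 2 rose, 42.9% and 7.14% against 13.8% and 18.6% of all genes. Without mock replicate 3 the number higher was 4. FIT1, the regulator of iron uptake, went from between 121 and 125 CPM in the mock libraries to 39.7, 41.7 and 46.7 CPM in ABA (-1.53 ± 0.11). Its target IRT1, the iron importer gene, lay at 231, 118 and 128 CPM in mock and 25.5, 44.0 and 21.5 CPM in ABA (-2.39 ± 0.38), and FRO2, the ferric reductase gene, at 154, 74.9 and 64.5 CPM and 20.1, 33.4 and 16.9 CPM (-2.06 ± 0.36). Mock replicate 1 was the highest library for both. The gene F6'H1, whose product makes iron-mobilising coumarins, fell by 2.27 on the log2 scale. The factor genes of the iron-deficiency signal itself, BHLH038, BHLH100 and BHLH101, were at 0.15 ± 0.25, 0.29 ± 0.37 and -0.20 ± 0.27 and did not pass. The fourth, BHLH039, passed at -0.47 ± 0.17, and its call ended without ABA replicate 1, ABA replicate 3, mock replicate 2 or mock replicate 3 (adjusted p = 0.097, 0.138, 0.0868 and 0.168).

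Of 22 nitrate and ammonium genes 9 fell and 6 rose, 40.9% and 27.3% against 13.8% and 18.6% of all genes. The ammonium transporter gene AMT1;2 lay at 315, 300 and 286 CPM in mock and 44.5, 67.1 and 51.9 CPM in ABA (-2.46 ± 0.19), and AMT1;3 fell from a mean of 243 to 115 CPM. The nitrate transceptor gene NRT1.1 rose from 657, 784 and 842 CPM to 1402, 1335 and 1292 CPM (0.82 ± 0.14), and the nitrate reductase genes NIA1 and NIA2 rose by 1.57 ± 0.25 and 0.88 ± 0.14. NRT2.1, the high-affinity importer gene, passed at -1.12 ± 0.35, and its call ended without ABA replicate 2, ABA replicate 3 or mock replicate 2 (adjusted p = 0.0651, 0.0826 and 0.0853). NRT1.5, which loads nitrate into the xylem, fell from a mean of 1040 to 589 CPM (-0.82 ± 0.09).

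Potassium channels showed opposite changes. GORK, an outward channel of root hairs and guard cells, lay at 12.2, 9.72 and 11.7 CPM in mock and 98.1, 96.0 and 107 CPM in ABA (3.16 ± 0.11). SKOR, which releases potassium into the xylem, went from 75.5, 44.3 and 40.2 CPM to 15.4, 17.3 and 13.9 CPM (-1.78 ± 0.21). AKT1, the uptake channel gene, was at 0.14 ± 0.10 and did not pass. In the list of 25 phosphate, sulphate and potassium genes 9 rose and 4 fell, 36% and 16% against 18.6% and 13.8% of all genes.

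Sugar transport genes included some of the widest changes outside the ABA pathway, while aquaporin genes, those of water channels, stayed between -1.65 and 1.98. Of 20 sugar transporter genes 10 rose and 6 fell, 50% and 30% against 18.6% and 13.8% of all genes. The sucrose exporter gene SWEET11 lay at 0, 0.0368 and 0 CPM in mock and 11.5, 7.01 and 9.50 CPM in ABA, a ratio of 766 (212 to 6335) on 2 reads in mock. SWEET12, its partner in phloem loading, rose by 6.94 ± 0.85, and SWEET4 was at least 131-fold higher. The vacuolar gene SWEET16 fell from 24.6, 22.7 and 22.6 CPM to 2.63, 3.48 and 2.19 CPM (-3.08 ± 0.19), and the sucrose importer gene SUC1 from a mean of 218 to 81.7 CPM. Of 28 aquaporin genes 17 rose (60.7%) and 3 fell (10.7%). TIP2;3, a water channel gene of the vacuole, went from 261, 190 and 213 CPM to 933, 799 and 883 CPM (1.98 ± 0.16). The summed level of the list ran from 11764 to 14281 CPM in mock and from 17619 to 20257 CPM in ABA.

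**Figure D4:**
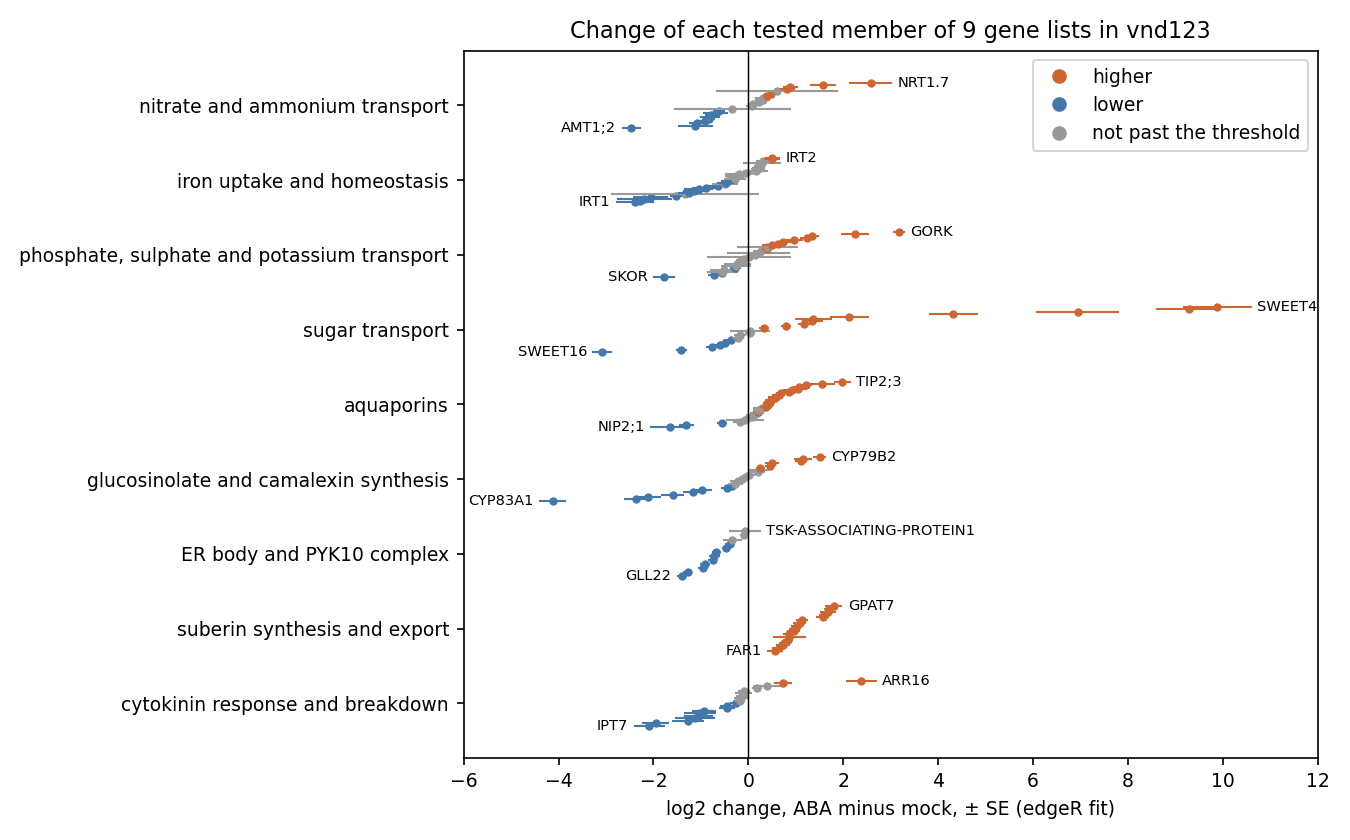
Log2 change ± SE (edgeR fit) of each tested member of 9 gene lists in vnd123, orange where it rose, blue where it fell and grey where it did not pass. The lowest and the highest member of each list is named. Suberin members all lie right of 0, ER body members left of it, and the transport lists spread to both sides.

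Of 12 ER body genes, which build the beta-glucosidase store of root cells, 9 fell and 0 rose, with a median of -0.70. PYK10, the store's main enzyme and the most abundant gene in every library, went from 9034, 9605 and 9959 CPM to 5914, 6547 and 5450 CPM (-0.68 ± 0.08), and NAI2, which is needed to form the bodies, from 989, 1009 and 1079 CPM to 583, 565 and 491 CPM. PBP1, a lectin gene of the PYK10 complex, fell by 1.28 and the GDSL lipase gene GLL22 by 1.40 on the log2 scale. The summed level of the list lay between 14175 and 15728 CPM in mock and between 8511 and 9624 CPM in ABA. Of 21 glucosinolate and camalexin genes 8 fell and 6 rose, 38.1% and 28.6% against 13.8% and 18.6% of all genes. Of the aliphatic branch, CYP83A1 went from 35.5, 50.0 and 42.9 CPM to 2.27, 2.96 and 2.14 CPM (-4.13 ± 0.27), and CYP79F2, MAM1, MAM3 and the regulator gene MYB28 fell by 2.37, 2.11, 1.17 and 0.97. Of the indolic branch, CYP79B2 rose from 68.7, 94.8 and 97.4 CPM to 257, 251 and 233 CPM (1.5 ± 0.12), and CYP79B3, CYP83B1 and the regulator gene MYB34 rose by 1.15, 0.50 and 1.1. Of 9 triterpene cluster genes 6 fell (66.7%) and 3 rose (33.3%). MRN1 of marneral synthesis rose from 11.8, 12.4 and 17.5 CPM to 105, 101 and 109 CPM, while THAS1 of thalianol synthesis fell by 1.32 ± 0.15.

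Hormone genes other than those of ABA changed in part. Of 19 cytokinin genes 10 fell and 2 rose, and the number lower was 5 without ABA replicate 1 or without mock replicate 3. The synthesis genes IPT3 and IPT7 fell, IPT3 from 9.57, 9.41 and 9.41 CPM to 2.18, 3.84 and 1.32 CPM (-1.96 ± 0.26), and the response regulator gene ARR16 rose by 2.38 ± 0.31. Ethylene synthesis genes went both ways, ACS5 from 6.12, 7.14 and 6.90 CPM to 1.13, 1.11 and 2.14 CPM (-2.22 ± 0.25) and ACS7 from 2.6, 4.84 and 3.62 CPM to 20.5, 17.2 and 17.2 CPM (2.31 ± 0.20). The auxin carrier genes PIN2 and AUX1 did not pass (-0.11 ± 0.08 and -0.03 ± 0.07), while PILS7, a gene of the PIN-LIKES family, rose by 3.75 ± 0.40. The jasmonate repressor genes JAZ4 and JAZ6 fell by 2.03 and 1.40, and JAZ1 and JAZ7 rose by 0.87 ± 0.12 and 2.96 ± 0.42.

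Of 36 meristem and cell cycle genes 6 rose and 1 fell, shares of 16.7% and 2.78% against 18.6% and 13.8% of all genes, and the summed level was 731 to 771 CPM in mock and 815 to 837 CPM in ABA. Without ABA replicate 1 the number lower was 0. The mitotic cyclin gene CYCB1;1 was at 0.24 ± 0.10 and the stem cell genes PLT1 and WOX5 at -0.02 ± 0.10 and 0.29 ± 0.22, none of which passed. CYCB1;1 passed without mock replicate 2 (adjusted p = 0.0471). In the phloem list 1 of 17 genes rose and 2 fell, 5.88% and 11.8% against the same 18.6% and 13.8%. The number higher was 0 without ABA replicate 1, ABA replicate 2 or mock replicate 2 and 2 without mock replicate 1, and the number lower was 4 without ABA replicate 2. In the root cap list 1 of 8 rose and 1 fell, 12.5% each way. The number higher was 0 without ABA replicate 1, ABA replicate 3 or mock replicate 1 and 2 without ABA replicate 2. Wall-loosening genes moved more: of 34 expansin and XTH genes 13 rose and 6 fell, with XTH19 from 55.3, 67.5 and 76.7 CPM to 268, 216 and 275 CPM (1.93 ± 0.12). In the root hair list 10 of 22 rose (45.5%) and 3 fell (13.6%, against 13.8% of all genes). The number lower was 1 without mock replicate 2. The wall protein gene PRP1 went from 5.35, 5.45 and 4.97 CPM to 119, 88.8 and 124 CPM (4.39 ± 0.19), and RSL2, a hair growth regulator gene, fell by 1.54 on the log2 scale.

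Genes of green tissue, which mark shoot or greening cells in a root sample, were in part lower in ABA. Of 28 tested genes 13 fell and 0 rose, 46.4% and 0% against 13.8% and 18.6% of all genes. The other 15 did not pass, among them LHB1B1 with the highest change, 2.22. LHB1B1 passed as higher with DESeq2 (adjusted p = 0.0279) and without mock replicate 2 (0.0303). LHCB2.1 passed as higher with the replicate block (adjusted p = 0.011) and without mock replicate 1 (0.0369). Without mock replicate 1 the number lower was 8 and the number higher 1, and without mock replicate 2 the number higher was 1. The summed level of the list was 429 to 579 CPM in mock and 304 to 393 CPM in ABA. RBCS1B, RBCS2B and RBCS3B, members of a family of near-identical copies, were listed at 0 in the vnd123 libraries. The part that green cells play in other genes' changes was not tested. In the list of 19 senescence and protein turnover genes 7 rose and 3 fell, 36.8% and 15.8% against 18.6% and 13.8% of all genes. Its chlorophyll breakdown genes NYC1, PAO and NYE1 were among those that rose, with NYC1 at 3.87, 4.73 and 4.74 CPM in mock and 25.5, 21.0 and 27.9 CPM in ABA (2.48 ± 0.15), PAO at 2.3 ± 0.13 and NYE1 at 1.57 ± 0.12. DIN10, a sugar starvation gene, went from 672, 363 and 358 CPM to 109, 56.8 and 68.9 CPM (-2.56 ± 0.31). Of 19 genes of that list 5 fell and 0 rose, 26.3% and 0% against 13.8% and 18.6% of all genes. The number lower was 2 without ABA replicate 3 or without mock replicate 1. Of 25 heat shock and antioxidant genes 11 rose (44%) and 10 fell (40%), with a median of -0.12. The heat stress factor gene HSFA6B rose from 4.13, 5.54 and 9.34 CPM to 121, 74.6 and 266 CPM (4.6 ± 0.42). HSFA3 had the lowest change of that list, -0.90. Of 14 hypoxia and fermentation genes 6 rose (42.9%) and 2 fell (14.3%, near the 13.8% of all genes). ADH1 went from 5.11, 7.48 and 5.56 CPM to 37.8, 59.7 and 51.8 CPM. HRE2 was lowest in the hypoxia list, at -2.43.

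The largest decreases fell outside most of these lists. AT5G41300, a receptor-like kinase-related gene, had 719 reads in mock and 2 in ABA, a ratio of 0.00338 (0.000409 to 0.0123). The GDSL lipase genes AT3G27950 and GLIP2 fell by 7.05 and 6.16 on the log2 scale. GLIP2 (AT1G53940) lay at 27.4, 26.5 and 29.1 CPM in mock and 0.148, 0.696 and 0.387 CPM in ABA. HDK (AT5G20470), annotated as a myosin gene, went from 5.56, 5.52 and 5.28 CPM to 0.0555, 0.258 and 0.181 CPM, and the peptide transporter gene PTR3 from 9.57, 7.24 and 8.71 CPM to 0.425, 0.283 and 0.155 CPM. AT5G38940, a cupin family gene, was the most abundant of these in mock, at 70.0, 56.7 and 48.9 CPM against 3.53, 2.14 and 3.18 CPM in ABA. Among the most abundant genes that fell at least 2-fold, AT3G32980 and AT5G64100, both peroxidase family genes, fell by 1.14 and 1.76, AT5G26280, a TRAF-like family gene, by 2.3, and the oxophytodienoate reductase gene OPR1 by 1.68 (OPR1 overlaps its close paralog AT1G76690).

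The response was then set against those of Col-0 and vnd7 through the difference of responses in the same fit. No gene passed that test against Col-0 (smallest adjusted p 0.786) or against vnd7 (0.671), with 748 and 964 of 20869 genes (3.58% and 4.62%) at an unadjusted p under 0.05. DESeq2 called 6 genes against Col-0 and 2 against vnd7, and the edgeR fit of only the compared groups called 1 against Col-0 and 0 against vnd7. A test that finds no gene does not show that the responses are equal. Of the 1849 genes that changed at least 2-fold in vnd123, 165 had an unadjusted p under 0.05 in each comparison. These genes were chosen by the vnd123 response, which is part of the difference. Against Col-0 and vnd7, 7 and 4 of 19 sugar starvation genes and 5 and 8 of 28 iron genes were under 0.05. Secondary wall cellulose and xylan had 5 and 7 of 27, lignin synthesis 0 and 7 of 18, and suberin synthesis 0 and 1 of 17. For 1602 of the 1849 genes the fitted difference from Col-0 was under 1 on the log2 scale, and the median SE of that difference was 0.32. For PYL6 the difference from Col-0 was -0.06 ± 0.23, for CYP707A1 0.09 ± 0.20 and for GORK -0.16 ± 0.14.

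LAC17 had the smallest unadjusted p of the difference from Col-0. It rose by 0.62 ± 0.10 in vnd123 against 1.33 ± 0.09 in Col-0 and 1.27 ± 0.09 in vnd7, and the difference from Col-0 was -0.71 ± 0.13 (adjusted p = 0.786). DESeq2 called LAC17 in both comparisons. The gene overlaps AT5G60022 and AT5G00685. GLYI7, a glyoxalase family gene, lay at 0.465, 0.184 and 0.277 CPM in mock and 0.832, 0.386 and 0.568 CPM in ABA in vnd123 and did not pass (0.98 ± 0.44), against a change of 4.06 ± 0.41 in Col-0. GLYI7 passed without mock replicate 1 (adjusted p = 0.0479). AT2G40390 fell by 1.26 on the log2 scale in vnd123, from 1.16, 1.47 and 1.38 CPM to 0.481, 0.541 and 0.671 CPM, and was at 0.74 ± 0.29 in Col-0 and 0.52 ± 0.28 in vnd7. GUX2, a xylan glucuronosyltransferase gene, rose by 0.44 ± 0.08 in vnd123 and 0.98 ± 0.08 in vnd7, a difference of -0.55 ± 0.11, and the xylanase family gene RXF12 fell by 0.70 and 1.44, a difference of 0.74 ± 0.15. The differences of GLYI7 and AT2G40390 from Col-0 and of GUX2 and RXF12 from vnd7 did not pass in the edgeR fit. DESeq2 called the differences of GLYI7 and AT2G40390 from Col-0 (adjusted p = 0.00209 and 0.0203) and of RXF12 from vnd7 (0.0479).

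**Figure D5:**
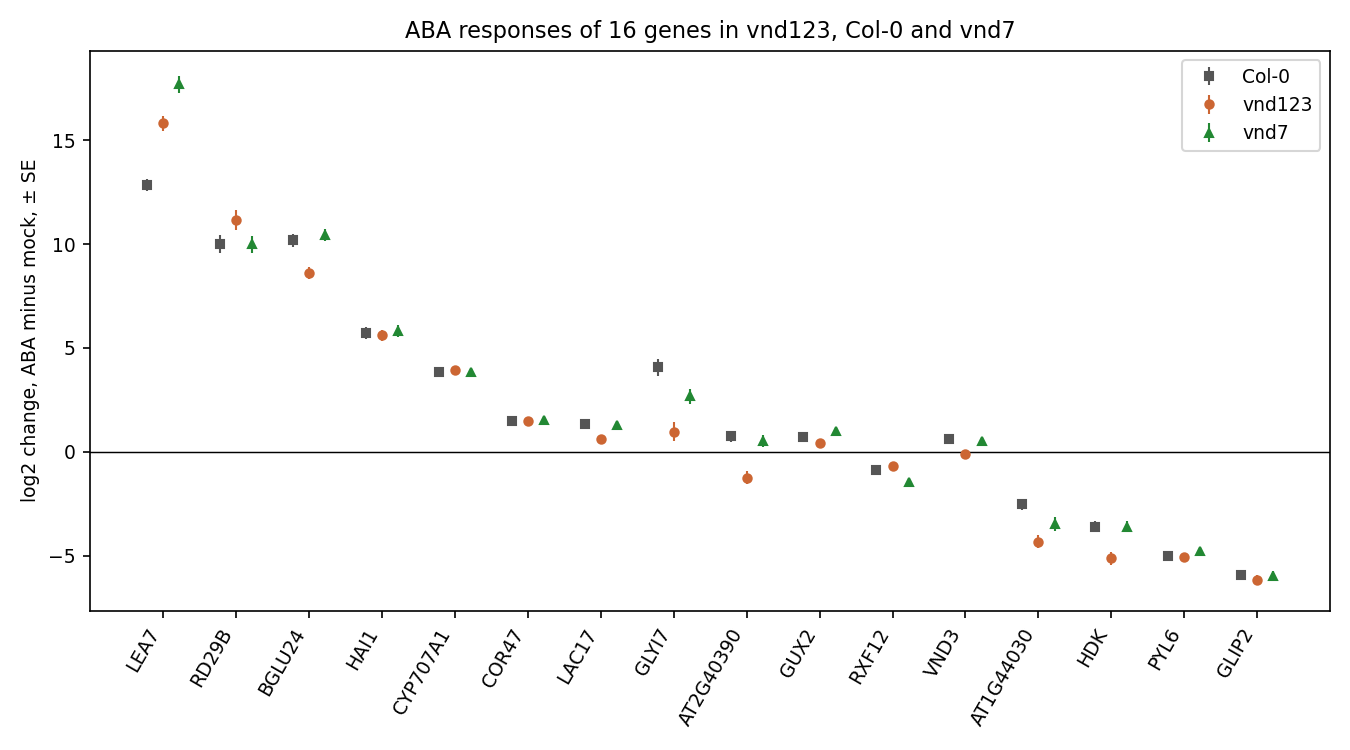
Log2 change ± SE (ABA minus mock, edgeR fit) of 16 genes in Col-0 (squares), vnd123 (circles) and vnd7 (triangles). LAC17 lies at 0.62 in vnd123 and at 1.33 and 1.27 in Col-0 and vnd7, AT2G40390 is below 0 in vnd123 alone, and PYL6 lies near -5 in each genotype.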

How the data were processed

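RNA of pooled seedling roots was sequenced as paired reads using a library kit without strand marking, per the labels' protocols. The deposited table holds raw read counts per gene that the authors made; the submitters' processing notes name HISAT2 and HTSeq, and the sources used here name neither genome build nor annotation. Values in CPM, fold changes and tests were computed from those counts.

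Libraries were grouped by genotype and treatment, 3 in each of 6 groups. Genes kept by filterByExpr were scaled by TMM and fitted in R 4.3.3 with edgeR 4.0.16 (limma 3.58.1) across all 18 libraries, 12 residual degrees of freedom, with glmQLFit and glmQLFTest and Benjamini-Hochberg adjustment over all tested genes. SE is the log2 fold change divided by the square root of F. Differences of responses between genotypes were contrasts of the same fit, which was checked on simulated counts. Alternatives were DESeq2 1.42.0, other scalings, no filter, only the groups compared, a replicate block, and each replicate left out.

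A group with 0 reads was set to 3 reads over the group for a lower bound, and ratios on 1 to 3 reads carry exact 95% intervals, both covering counting error only. Total counts, given in the report, limit the precision of scarce genes. Gene symbols and promoters came from TAIR10.1 by locus code.

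The gene lists and the choice of comparison were made with earlier results of these data known. Genes were named as VND1 to VND3, the 12 largest changes each way (mean log2 CPM above 1, groups not overlapping), the 8 most abundant each way with at least 2-fold change, up to 4 per list by smallest p, and the 3 lowest p-values of each difference; other list members were named for their known role after their values were seen.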

Additional observations from a re-analysis of the deposited data

How the results depend on the processing

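Leaving out each vnd123 replicate in turn gave 3076 to 3498 higher and 2266 to 2894 lower genes, 990 to 1084 and 719 to 805 at 2-fold or more, and 454 to 499 called list members against 513. With DESeq2 size factors 3619 rose and 3097 fell, without a filter 3494 and 2945, with DESeq2 3824 and 3297, and with only the compared groups 3291 and 2779. The replicate block gave 3968 and 2926. Same-numbered vnd123 libraries deviated together with correlations of 0.321, -0.0673 and 0.156, so the numbers were not taken as pairs. For the difference of responses, called for 0 genes in the edgeR fit, DESeq2 called 6 genes against Col-0 and 2 against vnd7, and the fit of only the compared groups called 1 against Col-0. Leaving out each of the 12 libraries of either comparison in turn left both at 0. The share of windows with ACGTG was 37.2% over all genes that rose against 44.9% at 4-fold or more. Of the recomputed list counts 1121 stayed within 1.5 times and 103 did not. For the 231 genes chosen by the naming rule, 2771 values were recomputed, of which 2709 kept their call, 58 (15 genes) lost it, 4 (2 genes) gained it and 0 reversed. Genes named outside the rule are not in that tally, and their lost or gained calls stand beside their values. The causes were not tested.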

Other observations

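Some well-known genes had no read in any of the 18 libraries. MYC2, a jasmonate regulator gene, and HSFC1, a heat stress factor gene, were listed at 0, and 98.5% and 99.9% of their length is covered by other loci in the reference annotation. PR1, PR2, PR5, LOX2, MYB29 and RBCS1B were also listed at 0, with 0% of their length covered. Over all loci, 6921 had no read in any library, and for 1667 of them (24.1%) other loci cover at least 90% of the length. Among the 25625 loci with reads this held for 665 (2.6%). A listed 0 of a covered locus is therefore not read here as absence of its RNA.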
